A study of Mus musculus with 9 samples.

Results

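The genes described here are 43 mouse genes of mitosis, the G2/M cyclins and the genes of the spindle, the kinetochore and cytokinesis, chosen by symbol from a table of 22322 genes. All 43 were found in the table, and all 43 passed the filter on low counts that left 12145 genes for testing. The table holds mRNA sequencing of 9 cultures of wild-type mouse cells labelled as retinal ganglion cells (RGCs), the neurons that carry the output of the retina, in 3 groups of 3. Normal RGCs were grown in complete medium, aging RGCs were treated with D-galactose, a sugar used to bring on senescence-like changes in culture, and the third group was aging RGCs given conditioned medium of urine-derived stem cells (USCs) from which the USCs had been removed. These groups are called normal, aging and medium below. The study calls the 3 samples of a group replicated wells, so p-values measure the spread between wells of 1 bought cell stock and not between animals. No group of normal RGCs given USCs medium was among the 9 samples, and the labels give neither the D-galactose concentration nor the times of the sequenced wells.

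The libraries held 18189616 to 22342288 counts each. Values below are in CPM, counts scaled to each library's total with the TMM factors of edgeR, which ran from 1.01 to 1.034 in the normal and aging libraries and from 0.956 to 0.965 in the medium libraries. Fold changes are on the log2 scale with their standard error (SE), and p-values come from the quasi-likelihood test of edgeR, adjusted by Benjamini-Hochberg over 12145 genes. A gene is said to have risen or fallen where its adjusted p was under 0.05. Each comparison rests on 3 libraries against 3.

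Mitosis is driven by a switch: cyclins A and B accumulate and bind the kinase CDK1, CDC25 phosphatases remove the inhibitory phosphates from CDK1, and the active kinase dismantles the nuclear envelope and builds the spindle. Chromosomes attach to the spindle at the kinetochore, a checkpoint holds the cell until all are attached, and the anaphase-promoting complex then marks cyclin B and securin for destruction, which frees separase to cut the sister chromatids apart. Transcripts of these genes peak together in G2 and mitosis, so their level in a culture is widely read as a sign of how many cells divide. Neurons of the adult retina, RGCs among them, have left the cell cycle.

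The labelled cell type was checked against 14 RGC markers. Of these, 8 were under 1 CPM in all 9 libraries, and the RGC transcription factors Pou4f2 and Pou4f3 were at 0 in each. Pou4f1 lay between 0.103 and 1.37 CPM. Isl1, a transcription factor on the same list, was detected at 17.9, 17.1 and 21.6 CPM in the normal libraries. It was at 13, 11.1 and 11.8 CPM in the aging libraries and 12.1, 14.1 and 13 in the medium libraries. Aging against normal gave -0.66 ± 0.099 (adjusted p = 3.38e-06) for Isl1. Thy1, a surface marker used to isolate RGCs, had no count in 7 libraries and 1 count in each of the other 2. Rbpms, an RNA-binding protein used as an RGC marker, was detected at 61.6, 60.3 and 61.6 CPM in the normal libraries, 48.5, 48.7 and 51.5 in the aging libraries and 46.7, 45.5 and 51.8 in the medium libraries. The 14 markers summed to 143.5 to 154.6 CPM in the normal libraries, 102 to 105 CPM in the aging libraries and 96.5 to 104 CPM in the medium libraries. The sums hold opposite moves. Nefl, a neurofilament subunit, was at 57.5, 67.5 and 65.9 CPM in the normal libraries, 36.6, 41.5 and 37.2 in the aging libraries and 16.1, 18.2 and 17.5 in the medium libraries, and changed by -1.16 ± 0.076 (adjusted p = 3.99e-13) for medium against aging. Tubb3, a tubulin of neurons, was at 4.42, 4.51 and 4.44 CPM in the normal libraries, 3.14, 2.37 and 2.28 in the aging libraries and 21.2, 22.2 and 20.1 in the medium libraries, and changed by 3.03 ± 0.129 (adjusted p = 3.07e-17) in the same comparison. The part of these markers in the results on the mitosis genes was not tested.

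Macrophage markers set 1 library of the medium group apart. Adgre1, Lyz2 and C1qb stood at 1.64, 12.3 and 0.768 CPM in medium replicate 3, against 0.103 and 0.0993, 2.31 and 0.993, and 0 and 0 CPM in medium replicates 1 and 2. The normal libraries held 2.47, 0.921 and 2.12 CPM of Adgre1, 22.6, 10.2 and 13.1 of Lyz2 and 0.91, 0.63 and 0.543 of C1qb. In the aging libraries the values were 0.108, 0 and 0.0506, then 6.38, 1.185 and 1.92, then 0, 0 and 0 CPM. These markers thus also set the normal libraries apart from the aging libraries. The results that rest on medium replicate 3 are given with and without it.

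Mitosis transcripts were abundant in all 3 groups. Per length (FPKM, mean of the 9 libraries), the levels ran from 12.3 for Cdc25c, which lay above 52.9% of tested genes, to 242 for Top2a, which lay above 98% of them. Top2a (topoisomerase II alpha, which untangles chromosomes) and Ube2c (241 FPKM, the ubiquitin-conjugating enzyme of the anaphase-promoting complex) led, followed by Cdk1 at 141 and Birc5 at 119.9 FPKM. Counts behind the members ran from 411 for Pttg1 to 27505 for Top2a in a single library, and the SEs of the members' log2 fold changes lay between 0.0306 and 0.0756. Bulk libraries count transcripts of a whole well, so more dividing cells and more transcript per dividing cell cannot be told apart. By flow cytometry the study reported more cells in G1 and fewer in S in its aging group than in its normal group. It saw no obvious difference in G2, and reported lower cell numbers and CCK8 viability values for aging RGCs. With USCs medium it reported fewer cells in G1, and for aging RGCs a lower apoptosis rate and higher cell numbers and CCK8 values. Those are other measures than transcript levels, and how they relate to the sequenced wells was not tested.

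Promoter sequences were looked at first because G2/M genes are known to share promoter elements: CCAAT boxes bound by NF-Y, and a cell cycle homology region with the letters TTTGAA or TTCGAA near the start, through which the DREAM and MuvB complexes act. RefSeq promoter windows of 300 bases (250 before the start to 50 after, build GRCm38.p6) were matched by symbol for 35 of the 43 genes. On either strand, CCAAT was found for 27 of the 35 (77.1%), against 41.1% of all 27025 genes with a window. At least 2 copies were found for 18 (51.4%), against 13.3% of all. TTTGAA or TTCGAA was found for 28 (80.0%), against 21.7%, and both kinds of motif for 25 (71.4%), against 8.61%. Ect2 and Prc1 each had 2 overlapping windows, and a copy that both windows hold was counted once. The CCAAT copies lay at a median of -67.5 bases from the start, with 41 of 62 copies within the 100 bases before it, while the median of the 38 TTTGAA or TTCGAA copies was -1. Birc5, Mad2l1, Nuf2, Nusap1 and Pttg1 held neither in their windows. These are matches of letters in a window and not measured binding. The motifs do not share letters with each other on the same bases.

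**Figure D1:**
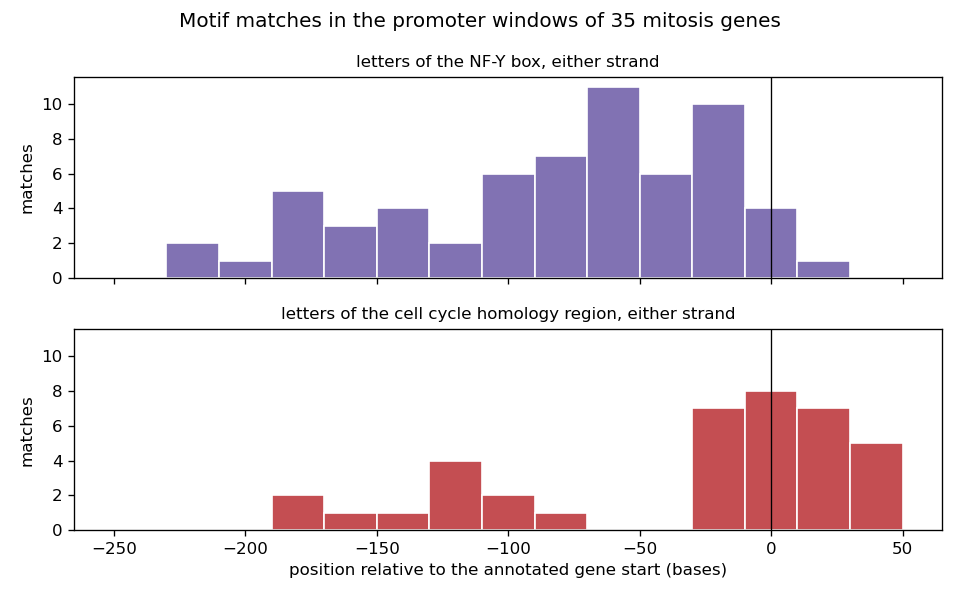
Positions of the motif letters in the RefSeq promoter windows of the 35 matched mitosis genes; x axis, bases from the transcription start, y axis, number of copies on either strand. Copies of the NF-Y box gather upstream of the start (41 of 62 between -100 and -1), and copies of the cell cycle homology region gather at the start itself (27 of 38 between -50 and 50).

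Windows of 7 genes that the results below turn on are printed from 150 bases before to 30 bases after the start, 5′ to 3′ on the gene's own strand, with the motif letters of either strand in capitals (ATTGG is CCAAT and TTCAAA is TTTGAA on the other strand). They were chosen after the values were seen: the first 4 belong to genes that rose in both aging against normal and medium against aging, Ccnf and Kif23 to genes that rose in the former and fell in the latter, and Pttg1 passed the test in neither. The GRCm38.p6 positions are chr13:100786457-100786636, minus strand, for Ccnb1; chr9:70421525-70421704, minus strand, for Ccnb2; chr4:118437314-118437493, minus strand, for Cdc20; chr2:164769779-164769958, plus strand, for Ube2c; chr17:24251380-24251559, minus strand, for Ccnf; chr9:61946770-61946949, minus strand, for Kif23; and chr11:43425952-43426131, minus strand, for Pttg1.
Ccnb1: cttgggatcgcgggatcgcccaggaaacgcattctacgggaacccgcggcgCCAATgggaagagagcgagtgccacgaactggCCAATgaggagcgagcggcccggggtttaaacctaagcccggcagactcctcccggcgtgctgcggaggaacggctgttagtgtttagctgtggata
Ccnb2: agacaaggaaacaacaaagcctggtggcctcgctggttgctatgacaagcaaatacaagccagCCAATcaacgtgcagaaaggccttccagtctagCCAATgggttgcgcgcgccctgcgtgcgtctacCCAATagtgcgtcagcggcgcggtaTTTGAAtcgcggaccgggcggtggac
Cdc20: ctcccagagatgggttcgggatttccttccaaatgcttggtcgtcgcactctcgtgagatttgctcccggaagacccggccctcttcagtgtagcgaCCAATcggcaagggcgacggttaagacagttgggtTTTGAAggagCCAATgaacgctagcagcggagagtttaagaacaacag
Ube2c: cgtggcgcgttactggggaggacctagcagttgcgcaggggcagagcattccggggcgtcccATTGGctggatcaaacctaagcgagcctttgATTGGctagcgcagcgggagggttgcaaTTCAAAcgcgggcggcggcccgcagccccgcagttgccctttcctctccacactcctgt
Ccnf: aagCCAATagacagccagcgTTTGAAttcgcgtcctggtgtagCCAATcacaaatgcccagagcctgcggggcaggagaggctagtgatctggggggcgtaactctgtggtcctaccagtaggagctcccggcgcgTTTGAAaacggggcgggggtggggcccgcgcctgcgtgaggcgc
Kif23: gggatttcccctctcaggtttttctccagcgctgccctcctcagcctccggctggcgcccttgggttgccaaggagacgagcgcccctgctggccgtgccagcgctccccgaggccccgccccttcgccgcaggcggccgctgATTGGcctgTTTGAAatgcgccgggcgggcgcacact
Pttg1: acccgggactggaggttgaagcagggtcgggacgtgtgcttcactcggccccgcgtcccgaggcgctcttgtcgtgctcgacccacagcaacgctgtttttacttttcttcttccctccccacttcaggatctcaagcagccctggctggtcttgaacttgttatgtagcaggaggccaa
The stretches of Ccnb2, Cdc20, Ube2c, Ccnf and Kif23 hold both kinds of motif, that of Ccnb1 holds 2 CCAAT copies alone, and that of Pttg1 holds none. The RefSeq window of Pttg1 (chr11:43425932-43426231, minus strand) lies wholly inside the GENCODE M21 gene (chr11:43420250-43426251). The bases before the GENCODE start were therefore not searched, and whether Pttg1 lacks these motifs there cannot be read from its window. The windows of Kif2c, Cdca8 and Kif4 also lie wholly inside their GENCODE genes, and motif positions above are counted from the RefSeq start. Genes that rose and genes that fell with USCs medium both appear among the printed stretches with both motifs.

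The first comparison asks what D-galactose did to these genes. Mitosis genes were higher in aging RGCs than in normal RGCs almost throughout: 39 of 43 rose (90.7%, against 23.6% of all tested genes) and 0 fell (against 23% of all). At an unadjusted p under 0.05, 40 were higher and 1 (Pttg1) was lower, and DESeq2 called 39 and 0. The 4 without a call were Cdc25c, Cdca8, Racgap1 and Pttg1. The members' median log2 fold change was 0.36 (range -0.15 to 0.71), against 0.002 over all tested genes. The changes were small: 3 members passed 1.5-fold and 0 passed 2-fold, against 1.09% of all genes that rose and 1.56% that fell by at least 2-fold. Small changes were also the rule over all 12145 tested genes, where 4688 of the 5649 called in either direction lay under 1.5-fold. For 40 of the 43, all 3 aging libraries lay above all 3 normal libraries, which held for 27% of tested genes. Leaving out any 1 library gave 36 to 40 rises.

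**Figure D2:**
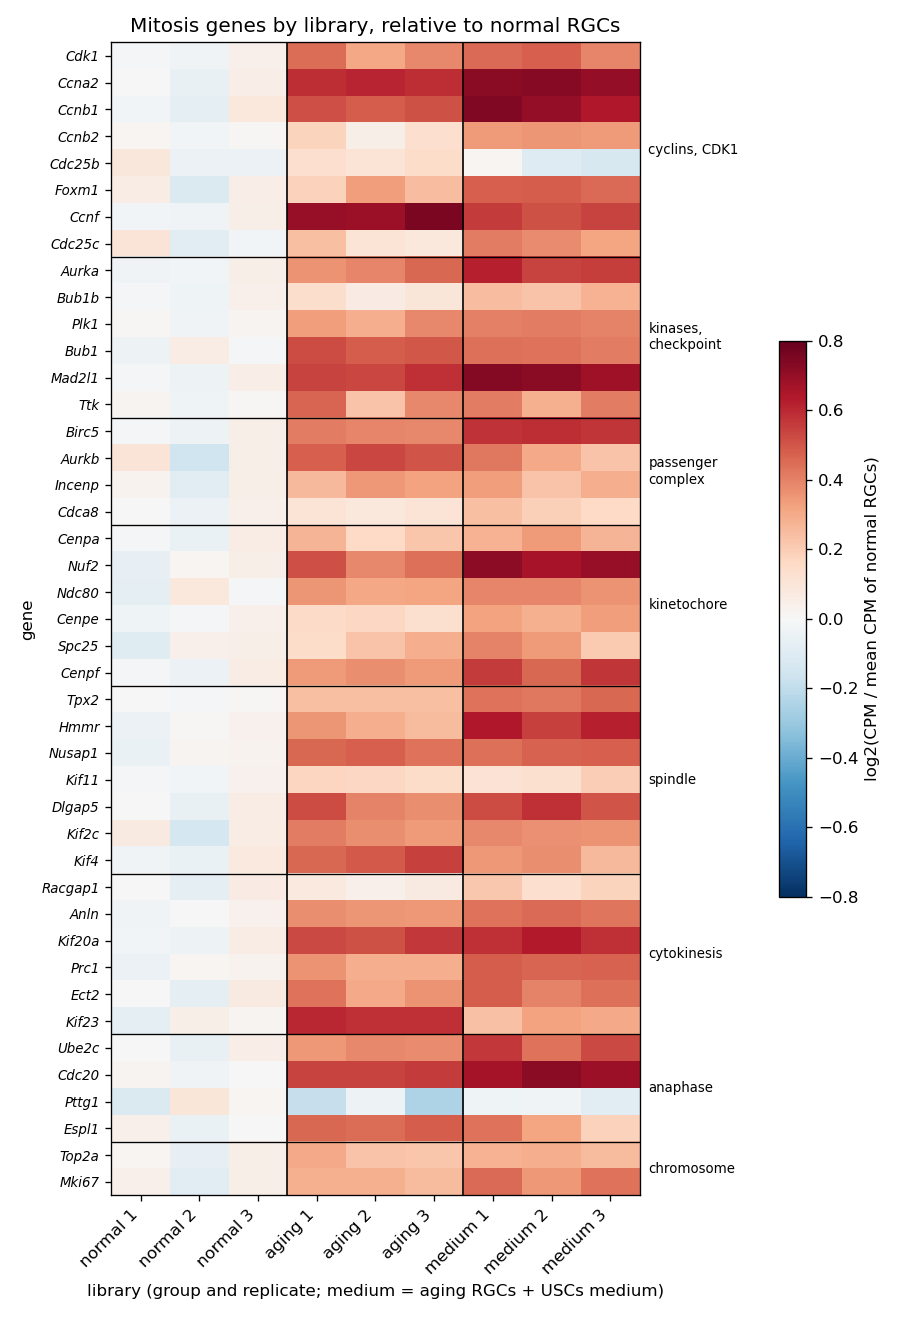
Heat map of the 43 mitosis genes (rows, grouped by role) in the 9 libraries (columns); colour shows the log2 of CPM over the gene's mean CPM in the normal libraries. The normal libraries lie below all aging libraries for 40 of the 43 genes and below all medium libraries for 41.

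The second comparison asks what USCs medium did to aging RGCs. It shares the aging libraries with the first, so spread in the aging means moves the values of the 2 in opposite directions. Words such as again, then, after and second below give only the order of the groups. No relation between the 2 comparisons was tested. The genes divided: 21 of 43 were higher in medium than in aging libraries (48.8%, against 27.1% of all tested genes) and 6 were lower (14%, against 26%), with the rises dropping to 11 without TMM factors and to 8 on log2(FPKM + 1) with limma. The falls were 9 and 7 under those settings. Over all tested genes the split was 3292 higher and 3154 lower with TMM factors, 2346 and 4199 without them, when the median of all genes moved from -0.007 to -0.085. The 6 that fell were Kif23, Cdc25b, Aurkb, Ccnf, Kif4 and Espl1. The largest rise was 1.24-fold (Hmmr) and 0 members changed by 1.5-fold in either direction, while 1.24% of all genes rose and 4.21% fell by at least 2-fold. Over all tested genes, 5011 of the 6446 called in either direction lay under 1.5-fold. The members' median log2 fold change was 0.10 with TMM factors and 0.02 without, against -0.007 and -0.085 over all genes. Groups did not overlap for 25 members in the higher direction (background 30.4%) and 7 in the lower (background 29.3%). The rises that passed the test in every alternative other than the 2-fold line, each left-out library included, were those of Birc5, Hmmr, Nuf2, Tpx2, Ccnb2, Prc1, Ccnb1 and Cenpe, and the falls were those of Cdc25b, Kif23, Kif4 and Ccnf.

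Against normal RGCs, the medium libraries were higher for 41 of 43 genes (95.3%, against 30.6% of all tested genes) and lower for 0 (against 29.9%). At an unadjusted p under 0.05 the counts were again 41 and 0, as they were with DESeq2, while Cdc25b was lower without TMM factors, with upper-quartile factors and on FPKM. The exceptions were Cdc25b, at -0.07 ± 0.045 (adjusted p = 0.158), and Pttg1, at -0.05 ± 0.074 (adjusted p = 0.577). The median log2 fold change of the members was 0.41, and 7 members passed 1.5-fold, led by Ccna2, Mad2l1 and Ccnb1, and 0 passed 2-fold, against 1.47% of all genes that rose and 5.24% that fell by at least 2-fold. Over all tested genes, 5461 of the 7350 called in either direction lay under 1.5-fold, so passing that line does not set the members apart. All 3 medium libraries lay above all 3 normal libraries for 41 members (background 31.9%), and below them for 0 (background 31.9%). Without TMM factors, which moved the median of all genes from -0.013 to -0.113, the members' median was 0.31.

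**Figure D3:**
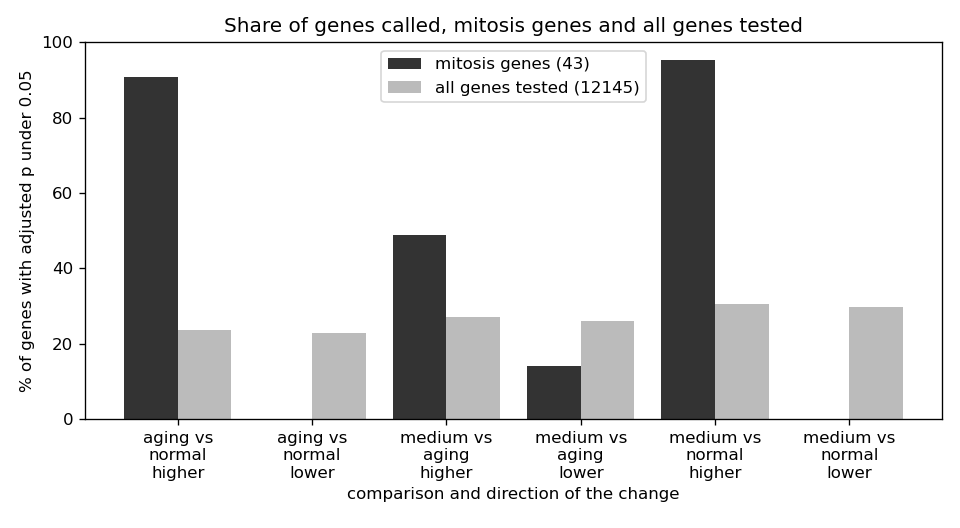
Percent of the 43 mitosis genes, and of all 12145 tested genes, called higher or lower (adjusted p under 0.05, edgeR) in each of the 3 comparisons; bars start at 0. Rises cover 90.7% and 95.3% of the members in the 2 comparisons with normal RGCs, while medium against aging shows 48.8% higher and 14% lower with TMM factors, where 11 and 9 genes were called without them.

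Summed over the 43 genes, the level was 6562 to 6951 CPM in the normal libraries, 8391 to 8558 CPM in the aging libraries and 8894 to 9070 CPM in the medium libraries, with no overlap between groups. Without TMM factors the means were 6952 ± 184, 8568 ± 117 and 8602 ± 80.3 CPM (SD, n = 3), so that the aging and medium sums then lay within 1 SD of each other. The members took 0.695% of all counts in normal, 0.857% in aging and 0.86% in medium libraries. No test was run on the sums.

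**Figure D4:**
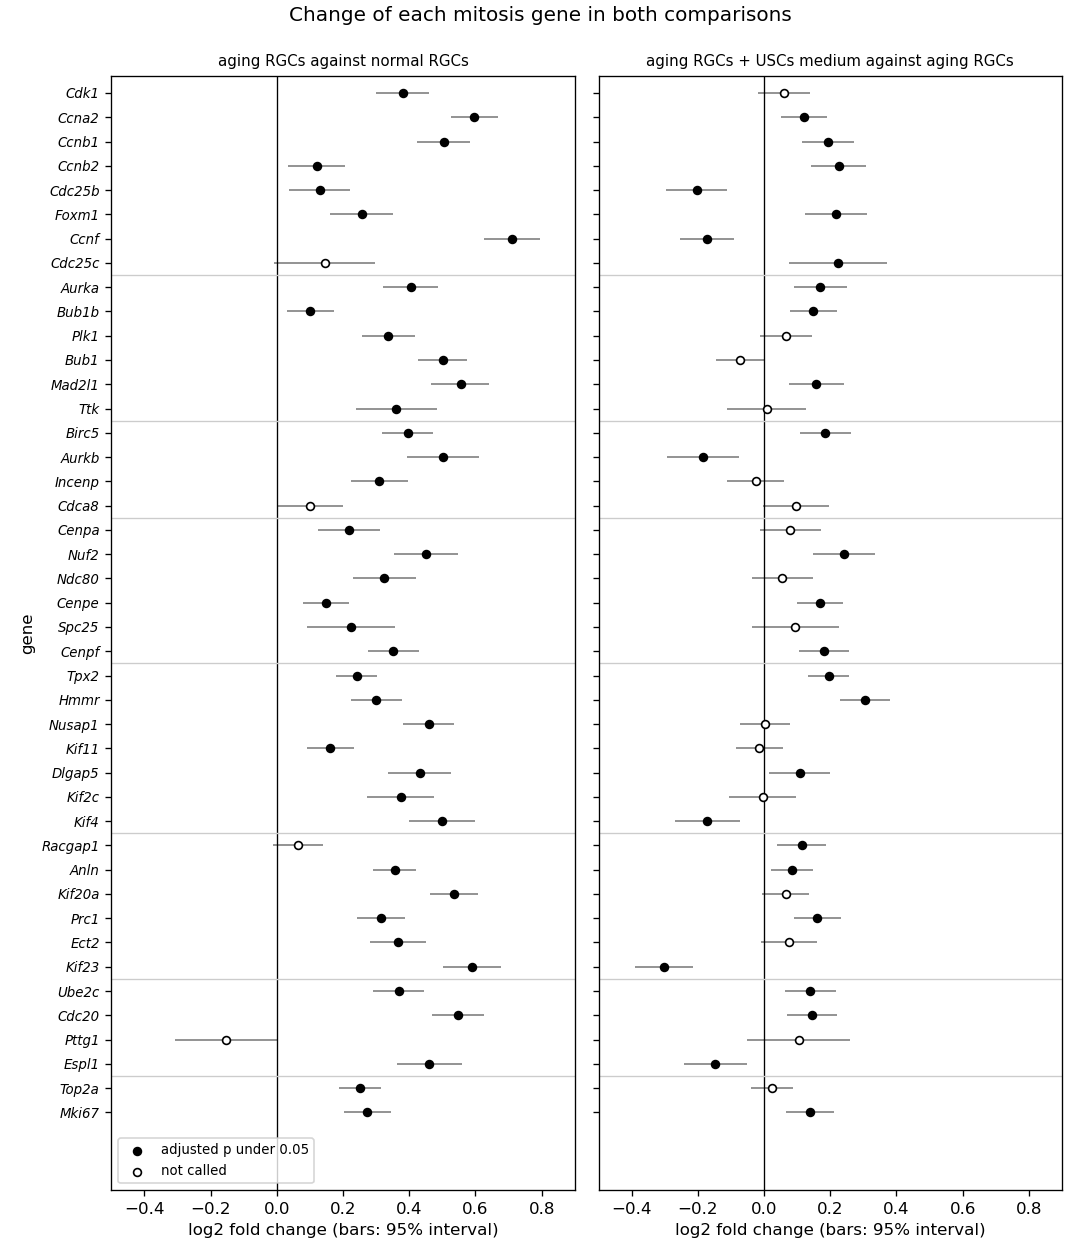
Log2 fold change of each mitosis gene with its 95% confidence interval (edgeR, 3 libraries against 3), ordered by role, for aging against normal and for medium against aging, with TMM factors; filled points passed an adjusted p of 0.05 and open points did not. Nearly all intervals of aging against normal lie above 0, with the largest value at 0.71 for Ccnf, while medium against aging runs from -0.30 for Kif23 to 0.30 for Hmmr.

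Of the 8 genes of the cyclin-CDK1 switch and its transcription factor, 7 rose in aging RGCs, and with USCs medium 5 were higher and 2 lower than in aging RGCs. Ccna2 (cyclin A2, the cyclin of S phase and of entry into mitosis; chr3:36564865-36572150 in GENCODE M21 on GRCm38) stood at 189.6, 181 and 196 CPM in the normal libraries, 284, 289 and 284 in the aging libraries and 312, 313 and 308 in the medium libraries. Each group lay wholly above the one before it. The log2 fold change was 0.60 ± 0.034 (adjusted p = 2.9e-14) for aging against normal, 0.12 ± 0.034 (adjusted p = 0.00333) for medium against aging and 0.72 ± 0.034 (adjusted p = 1.95e-16) for medium against normal. Without TMM factors or on FPKM the medium to aging difference of Ccna2 no longer passed the test. Ccnb1 (cyclin B1, the main mitotic partner of CDK1; chr13:100778650-100786570), whose promoter holds 2 CCAAT copies, stood at 151, 146 and 162 CPM in the normal libraries, 219, 214 and 218 in the aging libraries and 256, 249 and 239 in the medium libraries. It rose by 0.50 ± 0.039 (adjusted p = 1.88e-11) in aging RGCs. Medium against aging gave 0.19 ± 0.038 (adjusted p = 0.000102), and medium against normal gave 0.70 ± 0.039 (adjusted p = 6.57e-15). Ccnb2 (cyclin B2; chr9:70407692-70421547) was at 91.9, 89.7 and 91.4 CPM in the normal libraries, 103, 94 and 99.8 in the aging libraries and 115, 116 and 115 in the medium libraries. The groups did not overlap, with 0.12 ± 0.042 (adjusted p = 0.0195) for aging against normal, a call lost without TMM factors, on FPKM and without normal replicate 2 (adjusted p = 0.0573), aging replicate 1 (0.128) or aging replicate 3 (0.0656), and 0.23 ± 0.041 (adjusted p = 3.82e-05) for medium against aging. Cdk1 itself was at 147, 146 and 152 CPM in the normal libraries, 202, 183 and 194 in the aging libraries and 202, 206 and 195 in the medium libraries. Cdk1 rose by 0.38 ± 0.039 (adjusted p = 4.36e-09) in aging RGCs. Medium against aging passed no test, at 0.06 ± 0.038 (adjusted p = 0.187) with a 95% interval of -0.02 to 0.14, and -0.02 without TMM factors.

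Ccnf and Cdc25b were the members of the switch that fell with USCs medium. Ccnf (cyclin F, which does not bind a CDK but serves as the substrate-binding subunit of an SCF ubiquitin ligase; chr17:24222198-24251484) had the largest rise in aging RGCs of all 43 genes, at 74.3, 73.9 and 77.9 CPM in the normal libraries, 122, 121 and 127 in the aging libraries and 111, 107 and 109 in the medium libraries. The medium libraries lay between the other groups without touching either. The changes were 0.71 ± 0.041 (adjusted p = 3.72e-14) for aging against normal (1.64-fold), -0.17 ± 0.040 (adjusted p = 0.000623) for medium against aging and 0.54 ± 0.041 (adjusted p = 6.35e-12) for medium against normal. Cdc25b (a phosphatase that activates CDK1 at mitotic entry) was at 119, 108 and 108 CPM in the normal libraries, 122, 121 and 124 in the aging libraries and 113, 104 and 102 in the medium libraries. Its aging libraries were the highest of the 3 groups, and the normal and medium libraries overlapped. Aging against normal gave 0.13 ± 0.045 (adjusted p = 0.0182), a call lost without TMM factors, on FPKM and without normal replicate 2 (adjusted p = 0.0783) or 3 (0.102) or aging replicate 1 (0.0503) or 3 (0.0651), and medium against aging gave -0.20 ± 0.045 (adjusted p = 0.00038), which held in every alternative other than the 2-fold line. Without medium replicate 1, Cdc25b was lower in medium than in normal RGCs (-0.12, adjusted p = 0.0439). The related phosphatase Cdc25c was at 23, 20.1 and 21.1 CPM in the normal libraries, 25.2, 23.1 and 22.7 in the aging libraries and 28.4, 27.8 and 26.6 in the medium libraries. Its aging and normal libraries overlapped (0.14 ± 0.074, adjusted p = 0.114, with a call of 0.20 and adjusted p = 0.0496 without normal replicate 1), and the medium libraries were the highest (0.22 ± 0.073, adjusted p = 0.0112 against aging, adjusted p = 0.0546 without aging replicate 3, and no call without TMM factors or on FPKM). Foxm1, the transcription factor that drives many G2/M genes, stood at 100.4, 89.1 and 99.9 CPM in the normal libraries, 109.5, 122 and 114 in the aging libraries and 134, 135 and 132 in the medium libraries. It rose by 0.26 ± 0.046 (adjusted p = 4.52e-05) in aging RGCs and by 0.22 ± 0.045 (adjusted p = 0.000219) with USCs medium, the latter without a call on FPKM.

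**Figure D5:**
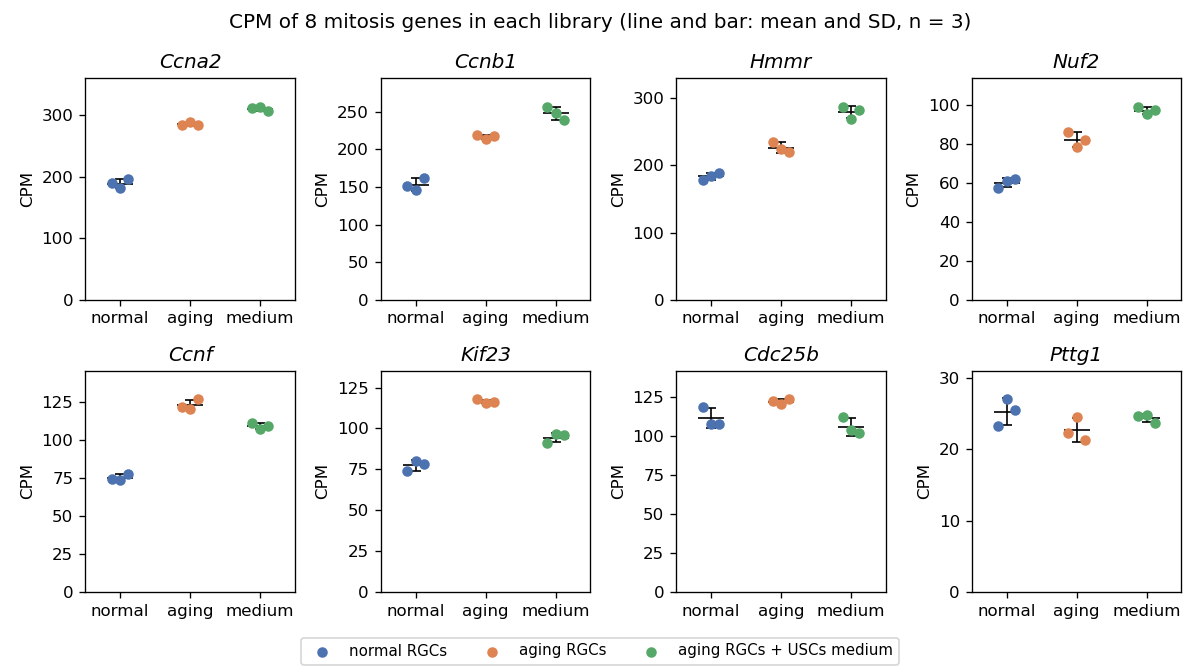
CPM of 8 mitosis genes in each of the 9 libraries (points), with the mean and SD of each group of 3; each panel starts at 0. Ccna2, Ccnb1, Hmmr and Nuf2 are highest in the medium libraries, Ccnf, Kif23 and Cdc25b are highest in the aging libraries, and the groups of Pttg1 overlap.

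All 6 mitotic kinases and checkpoint genes rose in aging RGCs, and 3 of them were higher again with USCs medium while 0 were lower. Mad2l1 (MAD2, the checkpoint protein that inhibits CDC20 at unattached kinetochores) stood at 67.3, 66 and 70.5 CPM in the normal libraries, 98.9, 98.4 and 102 in the aging libraries and 113, 112 and 109 in the medium libraries. The groups did not overlap, and the changes were 0.56 ± 0.043 (adjusted p = 1.61e-11) for aging against normal, 0.16 ± 0.041 (adjusted p = 0.00191) for medium against aging and 0.71 ± 0.042 (adjusted p = 2.4e-14) for medium against normal. Aurka (Aurora A, the kinase of the spindle poles) was the most abundant of the 6 per length and stood at 104, 105 and 109 CPM in the normal libraries, 136, 139 and 146 in the aging libraries and 163, 154 and 156 in the medium libraries. It rose by 0.40 ± 0.040 (adjusted p = 2.72e-09) and then 0.17 ± 0.039 (adjusted p = 0.00063). Bub1b (BubR1) was the third that was higher with USCs medium (0.15 ± 0.034, adjusted p = 0.000594), and its rise in aging RGCs was the smallest called among the 43 (0.10 ± 0.035, adjusted p = 0.0171), with no call without TMM factors, on FPKM or without normal replicate 2 (adjusted p = 0.0687) or aging replicate 1 (0.106). The second-step rises of Mad2l1 and Bub1b did not pass without TMM factors, and those of all 3 did not pass on FPKM. Plk1, the polo-like kinase of mitotic entry, and Ttk, the MPS1 kinase of the checkpoint, rose in aging RGCs by 0.34 and 0.36 and had values of 0.07 and 0.008 with USCs medium, both negative without TMM factors. Bub1 (the checkpoint kinase at kinetochores) rose by 0.50, with -0.07 for medium against aging (adjusted p = 0.0898), a fall that passed without TMM factors, with upper-quartile factors and on FPKM.

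The chromosomal passenger complex, which corrects faulty attachments and then guides cytokinesis, consists of the kinase Aurora B, its scaffold INCENP, survivin and borealin. Of its 4 transcripts 3 rose in aging RGCs, and with USCs medium 1 was higher and 1 lower. Birc5 (survivin) was at 97.4, 95.1 and 101 CPM in the normal libraries, 130.0, 128 and 128 in the aging libraries and 146, 147 and 146 in the medium libraries. It rose in both comparisons, by 0.40 ± 0.038 (adjusted p = 1.62e-09) and by 0.18 ± 0.037 (adjusted p = 0.000127). Aurkb (Aurora B) was at 89, 74.1 and 85.5 CPM in the normal libraries, 115, 119.9 and 117 in the aging libraries and 111, 102 and 97.2 in the medium libraries. It rose by 0.50 ± 0.053 (adjusted p = 9.81e-09) in aging RGCs and was lower with USCs medium, at -0.18 ± 0.053 (adjusted p = 0.00427), a call just lost without medium replicate 3, the library with the higher macrophage markers (-0.14, adjusted p = 0.0502). Incenp rose by 0.31 and then gave -0.03 (adjusted p = 0.644), and was called lower without TMM factors (-0.103, adjusted p = 0.0389). Cdca8 (borealin) passed the test in neither comparison, with 0.10 ± 0.049 (adjusted p = 0.093) and 0.10 ± 0.048 (adjusted p = 0.0929), although medium against normal passed at 0.20 with TMM factors and neither without them nor on FPKM.

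All 6 centromere and kinetochore genes rose in aging RGCs, and Nuf2, Cenpf and Cenpe were higher again with USCs medium. Nuf2, a subunit of the NDC80 complex that grips microtubules, stood at 57.5, 60.8 and 62 CPM in the normal libraries, 86, 78.4 and 81.7 in the aging libraries and 98.7, 95 and 97.3 in the medium libraries. Each group lay above the one before, by 0.45 ± 0.047 (adjusted p = 7.38e-09) and then 0.24 ± 0.045 (adjusted p = 5.57e-05), and medium against normal gave 0.69 ± 0.046 (adjusted p = 3.68e-13). Its partners in the complex, Ndc80 and Spc25, rose by 0.33 and 0.23 in aging RGCs, and their values with USCs medium were 0.06 (95% interval -0.04 to 0.15, negative without TMM factors) and 0.09 (-0.04 to 0.23). Cenpa, the histone H3 variant that marks centromeres, was at 73.4, 71.1 and 77.1 CPM in the normal libraries, 89.2, 82.5 and 86.1 in the aging libraries and 89.5, 93.3 and 89.4 in the medium libraries. Its rise was 0.22 ± 0.046 (adjusted p = 0.000253) in aging RGCs, and medium against aging gave 0.08 ± 0.045 (adjusted p = 0.142) although those libraries did not overlap. Cenpe (a kinetochore kinesin) and Cenpf were higher with USCs medium by 0.17 and 0.18, after 0.15 and 0.35 in aging RGCs. Neither the Cenpf call with USCs medium nor the Cenpe call in aging RGCs held on FPKM.

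The 7 spindle motors and microtubule binders all rose in aging RGCs, and with USCs medium 3 were higher and 1 lower. Hmmr (a spindle-binding protein also known as a hyaluronan receptor; chr11:40701395-40733422) had the largest rise with USCs medium of all 43 genes, at 178, 185 and 188 CPM in the normal libraries, 235, 225 and 219 in the aging libraries and 287, 269 and 283 in the medium libraries. The changes were 0.30 ± 0.037 (adjusted p = 1.32e-07) for aging against normal and 0.30 ± 0.036 (adjusted p = 5.57e-08) for medium against aging. Tpx2 (the activator of Aurora A on the spindle) was at 272, 270.4 and 274 CPM in the normal libraries, 321, 322 and 321 in the aging libraries and 367, 364 and 373 in the medium libraries. It rose by 0.24 ± 0.031 (adjusted p = 2.49e-07) and by 0.20 ± 0.031 (adjusted p = 4.49e-06). Kif4 (a chromosome-bound kinesin) was at 57.6, 56.9 and 62.2 CPM in the normal libraries, 80.8, 82.6 and 85.9 in the aging libraries and 74.8, 76.3 and 70.4 in the medium libraries. Aging against normal gave 0.50 ± 0.049 (adjusted p = 2.05e-09), and medium against aging gave -0.17 ± 0.048 (adjusted p = 0.00374). Dlgap5 (HURP, which stabilises spindle fibres) had a barely passing rise with USCs medium (0.11 ± 0.045, adjusted p = 0.0464), lost under most alternatives, among them the fits without aging replicate 2 (adjusted p = 0.141) or 3 (0.207) and medium replicate 1 (0.0669) or 2 (0.159). The motors Kif11 and Kif2c and the microtubule binder Nusap1 rose in aging RGCs by 0.16, 0.37 and 0.46. Their values for medium against aging lay between -0.015 and 0.004. Without TMM factors Kif11 was called lower (-0.093, adjusted p = 0.0258), while Kif2c (-0.083) and Nusap1 (-0.075) were not called.

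Among the 6 genes of the central spindle and cytokinesis, 5 rose in aging RGCs, and with USCs medium 3 were higher and 1 lower. Kif23 and Racgap1 encode the 2 proteins of centralspindlin, the complex that bundles the midzone. Kif23 (the motor MKLP1; chr9:61915905-61946774) stood at 73.7, 80 and 78.5 CPM in the normal libraries, 118, 116 and 116 in the aging libraries and 91.1, 96.6 and 95.7 in the medium libraries. The aging libraries were the highest and the medium libraries lay between, with 0.59 ± 0.043 (adjusted p = 4.55e-12) for aging against normal, -0.30 ± 0.042 (adjusted p = 7.27e-07) for medium against aging, the largest fall of the 43, and 0.29 ± 0.043 (adjusted p = 1.59e-06) for medium against normal. Racgap1 was at 238, 225 and 248 CPM in the normal libraries, 250.1, 243 and 249 in the aging libraries and 275, 260.5 and 268 in the medium libraries. Its normal and aging libraries overlapped (0.06 ± 0.036, adjusted p = 0.156), and the medium libraries were higher by 0.11 ± 0.036 (adjusted p = 0.00957), a call lost without TMM factors, with upper-quartile factors, on FPKM and without medium replicate 1 (0.10, adjusted p = 0.0534). Prc1, which crosslinks antiparallel microtubules, rose by 0.31 and then 0.16. Anln (anillin, a scaffold of the contractile ring) rose by 0.36 and was higher by 0.09 ± 0.031 (adjusted p = 0.0232) with USCs medium. The second Anln call was lost without TMM factors, with upper-quartile factors and without aging replicate 2 (adjusted p = 0.0506) or 3 (0.0744) or medium replicate 2 (0.0552), and its direction turned on FPKM (-0.03). Kif20a (a kinesin of the midzone) and Ect2 (the exchange factor that activates RhoA) rose by 0.54 and 0.37 in aging RGCs. With USCs medium Kif20a gave 0.07 (95% interval -0.005 to 0.14) and Ect2 0.08 (-0.008 to 0.16), both negative without TMM factors, and Ect2 passed the test without aging replicate 1 (0.11, adjusted p = 0.0414). Of the exon bases of Kif20a, 29.3% overlap Cdc23 on the other strand, and the strand setting of the counting is not given in the sources used here.

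Of the 4 genes of the anaphase route, Cdc20, Ube2c and Espl1 rose in aging RGCs and Pttg1 did not. Cdc20, which activates the anaphase-promoting complex and is the target of the checkpoint, was at 91.3, 88 and 90 CPM in the normal libraries, 130.5, 130.3 and 132 in the aging libraries and 142, 148 and 144 in the medium libraries. The groups did not overlap, and the changes were 0.55 ± 0.038 (adjusted p = 2.52e-12), 0.14 ± 0.037 (adjusted p = 0.0017) and, for medium against normal, 0.69 ± 0.038 (adjusted p = 5.37e-15). Ube2c stood at 189, 182 and 196 CPM in the normal libraries, 240.1, 247 and 246 in the aging libraries and 279.5, 256 and 272 in the medium libraries. It rose by 0.37 ± 0.038 (adjusted p = 4.34e-09) and by 0.14 ± 0.037 (adjusted p = 0.00219). The second rises of Cdc20 and Ube2c did not pass without TMM factors or on FPKM. Ube2c shares 22.8% of its exon bases with Tnnc2 on the other strand. Pttg1 (securin, the inhibitor of separase; chr11:43420250-43426251) was at 23.3, 27 and 25.5 CPM in the normal libraries, 22.2, 24.5 and 21.3 in the aging libraries and 24.7, 24.8 and 23.7 in the medium libraries. The 3 groups overlapped throughout, and the interval of aging against normal was -0.31 to 0.000, with a call of -0.21 without normal replicate 1 (adjusted p = 0.0328) and of -0.22 without aging replicate 2 (adjusted p = 0.0364). Espl1 (separase) rose by 0.46 ± 0.047 (adjusted p = 5.08e-09) in aging RGCs and fell by 0.15 ± 0.047 on the log2 scale with USCs medium (adjusted p = 0.00973), a call lost without medium replicate 3, the library that macrophage markers set apart (-0.08, adjusted p = 0.142).

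The remaining pair are the chromosome enzyme and the marker most used to count dividing cells. Top2a stood at 1128, 1066 and 1151 CPM in the normal libraries, 1377, 1306 and 1302 in the aging libraries and 1355, 1365 and 1330 in the medium libraries. It rose by 0.25 ± 0.031 (adjusted p = 1.41e-07) in aging RGCs and gave 0.02 ± 0.031 (adjusted p = 0.555) with USCs medium, negative without TMM factors. Mki67 (Ki-67, which coats mitotic chromosomes) had means of 712 ± 38, 861 ± 10 and 947 ± 36.5 CPM (SD, n = 3) in normal, aging and medium libraries. Its changes were 0.27 ± 0.035 (adjusted p = 2.35e-07) for aging against normal and 0.14 ± 0.035 (adjusted p = 0.00133) for medium against aging, the latter without a call when TMM factors were left out or on FPKM.

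Other genes of the division machinery were read from lists, to be set beside the shares of all genes above and the all-gene medians of 0.002 and -0.007. Of 50 further motor, spindle and kinetochore genes, 42 rose and 0 fell in aging RGCs (median log2 fold change 0.29, and 1 fell when any 1 normal library was left out). With USCs medium 16 were higher and 6 lower than in aging RGCs, or 12 and 10 without TMM factors (median 0.06 with them). Ckap2, a spindle protein, led the aging rises at 0.83 ± 0.053 (adjusted p = 2.64e-13), with means of 51.8, 92.1 and 88.1 CPM in normal, aging and medium RGCs. Cenpm, a centromere protein, led the rises with USCs medium at 0.99 ± 0.105 (adjusted p = 5.87e-09), with means of 8.68, 12.2 and 24.2 CPM. Condensin and cohesin genes, which shape and hold chromatids, rose in 12 of 16 and fell in 1 of 16 in aging RGCs, and with USCs medium 6 were higher and 0 lower, or 2 and 4 without TMM factors, with Smc3 at 0.22 ± 0.037 (adjusted p = 9.22e-06). Subunits and regulators of the anaphase-promoting complex gave 10 rises and 2 falls of 18 in aging RGCs and 5 and 4 with USCs medium (3 and 5 without TMM factors). The brakes on mitotic entry and the exit phosphatases gave 5 rises and 2 falls of 10 in aging RGCs and 4 and 3 with USCs medium (2 and 3 without TMM factors). Wee1, the kinase that restrains CDK1, was among the former at 0.43 ± 0.074 (adjusted p = 2.38e-05).

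Genes of the earlier cell cycle were read in the same way. Of 39 S-phase and replication genes, 36 rose and 0 fell in aging RGCs (median log2 fold change 0.41), and 20 were higher and 1 lower with USCs medium (0.12), or 12 and 7 without TMM factors. Their summed level was 3571 ± 86.1 CPM in normal, 4839 ± 33.6 CPM in aging and 5330 ± 95.9 CPM in medium libraries (SD, n = 3). Rrm2, the ribonucleotide reductase subunit that limits nucleotide supply, had means of 221, 337 and 528 CPM and changed by 0.65 ± 0.031 (adjusted p = 4.37e-16) with USCs medium. Of 9 G1 cyclins and kinases, 7 rose and 2 fell in aging RGCs. Ccne2 (cyclin E2) rose by 0.93 ± 0.042 (adjusted p = 9.2e-17) and Myc, the growth regulator, fell, with a log2 fold change of -0.62 ± 0.120 (adjusted p = 8.84e-05). With USCs medium 3 of the 9 were higher and 1, Ccnd1 (cyclin D1), was lower at -0.27 ± 0.034 (adjusted p = 1.31e-07), or 0 and 3 without TMM factors. DREAM and MuvB regulators, whose binding to the promoter windows above was not measured, gave 9 rises and 3 falls of 20 in aging RGCs and 7 and 4 with USCs medium (4 and 6 without TMM factors). Mybl2, the activator that joins MuvB, rose by 0.56 ± 0.041 (adjusted p = 6.46e-12) in aging RGCs, and E2f4, the main E2F of the repressive complex, was higher by 0.48 ± 0.041 (adjusted p = 1.21e-10) with USCs medium.

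Genes that stop the cycle were looked at last. Of 15 tested CDK inhibitors and arrest genes, 4 rose and 5 fell in aging RGCs, and 2 were higher and 9 lower with USCs medium (2 and 10 without TMM factors). Cdkn1a (p21, the inhibitor induced by p53) was at 266, 293 and 285 CPM in the normal libraries, 269.7, 288 and 285 in the aging libraries and 246, 249.9 and 249.8 in the medium libraries. Normal and aging libraries overlapped (log2 fold change -0.003, adjusted p = 0.955), and the medium libraries were lower than the aging ones (log2 fold change -0.18, adjusted p = 0.000223). Cdkn1b (p27) had means of 67.3, 54.2 and 54.2 CPM and was lower in aging than in normal RGCs (log2 fold change -0.31, adjusted p = 1.09e-05). Cdkn2a, which encodes the senescence marker p16, had 0 counts in all 9 libraries. A level below what these libraries detect cannot be told from 0. Ccng1, a p53 target, rose by 1.30 ± 0.032 (adjusted p = 2.35e-22) in aging RGCs, with means of 224, 551 and 393 CPM, while Gadd45a, a stress-induced gene, fell, with a log2 fold change of -1.48 ± 0.126 (adjusted p = 1.38e-10).

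Markers of other cells were set beside these results. The 11 macrophage markers summed to 71.3 to 83.6 CPM in normal, 58.0 to 63.8 in aging and 45.3 to 71.8 CPM in medium libraries, the highest of the last in medium replicate 3. Most of these counts were Cd68 and Cd14, which gave 0.10 ± 0.070 (adjusted p = 0.237) and 0.008 ± 0.098 (adjusted p = 0.953) for aging against normal. Ptprc was not called either (-0.44, adjusted p = 0.33). Scarcer markers were called lower in aging than in normal RGCs. These were Adgre1 (-4.99, adjusted p = 2.48e-05), Lyz2 (-2.30, 0.000172), Csf1r (-1.61, 0.00111), C1qb (-6.83, 0.000564), Fcer1g (-2.41, 0.0045) and Tyrobp (-1.415, 0.0313). Adgre1 was at 2.47, 0.921 and 2.12 CPM in the normal libraries and 0.108, 0 and 0.0506 CPM in the aging libraries. The 9 mesenchymal markers summed to 3135 to 3230, 3037 to 3107 and 2618 to 2728 CPM, and the 7 epithelial markers to 1047 to 1141, 1077 to 1103 and 1236 to 1285 CPM, in the same order. The 7 Müller glia and astrocyte markers, most of whose counts were Vim, summed to 1765 to 1859, 2061 to 2133 and 2031 to 2167 CPM. The epithelial and mesenchymal sums hold opposite moves too. For aging against normal, Krt8 was called higher (0.45 ± 0.035) and Krt18 (-0.35 ± 0.038) and Krt19 (-0.41 ± 0.037) lower, with no call for Epcam. Among the mesenchymal markers Vim was called higher (0.24 ± 0.030), and Fn1 (-0.62 ± 0.038), Col1a1, Col3a1, Pdgfra and Pdgfrb lower. The 9 photoreceptor markers summed to 1.18 to 2.83 CPM over the 9 libraries, with Crx, Arr3 and Rcvrn at 0 in all, and Krt5 of the epithelial list was at 0 as well. The part of these cells in the changes of the mitosis genes was not tested.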

How the data were processed

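Total RNA was extracted with Trizol, mRNA was enriched with oligo(dT) beads, and 9 libraries were sequenced. The authors deposited 1 table with expected counts per gene, not all whole, and FPKM (fragments scaled to gene length and depth), and per the labels the build was mm10. The aligner, the counting program, its strand setting and the annotation were not given in the sources used here. Deposited counts were rounded to whole numbers and fitted in edgeR 4.0.16 (R 4.3.3) with TMM factors, filterByExpr (45.6% of 22322 genes not tested) and glmQLFit, with 1 mean for each group, all 9 libraries in 1 fit and no covariate. The common biological coefficient of variation was 3.78%, and every member had at least 411 counts in every library.

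Calls were made at a Benjamini-Hochberg adjusted p under 0.05, and a count with an added 2-fold line was kept beside them. The SE is the absolute log2 fold change over the square root of F. Alternatives used no TMM factors, upper-quartile factors, DESeq2 1.42.0, other filters, limma 3.58.1 on log2(FPKM + 1) and log2(FPKM + 0.1), the replicate number as a block, and each library left out. The fit was run before use on simulated data with spreads taken from these data. Its pass rule rested on planted 2-fold changes and on false calls. No member reached 2-fold, so that rule does not vouch for calls at the members' sizes. Samples with the same number did not deviate together (correlations -0.059 to 0.044 over 9 pairs). The members, role groups and other lists were chosen with earlier results of these data known. Values in every library are given for the 5 called members with the largest rise and fall in each comparison and the most abundant member of each role group, and for Pttg1, chosen after its values were seen. Genes outside the members are at most the 2 called genes with the largest change per list and comparison, plus Cdkn1a, Cdkn1b and Cdkn2a. Gene positions are from GENCODE M21 (GRCm38), which held all 43 members. Of the members, 3 share exon bases with a gene on the same strand, 11 with a gene on the other strand, and 8 had expected counts with decimals in at least 1 library. Besides Kif20a and Ube2c, the largest shares with the other strand were 15.1% for Kif4, 12.7% for Cdc25c, 12.5% for Ccna2 and 11.1% for Prc1. Expected counts of Kif4, Ccna2 and Prc1 had decimals in 9, 9 and 8 libraries.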

Additional observations from a re-analysis of the deposited data

How the results depend on the processing

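Rises in aging against normal RGCs (39) and in medium against normal RGCs (41) stayed within 1.5 times under every other scaling, filter and test, with 36 to 40 and 41 to 41 rises when 1 library was left out. Of the members called higher, 35 and 37 were called in every alternative other than the 2-fold line. The counts of falls in these comparisons, 0, became 1 under some settings, with 0 to 1 over the left-out libraries in both: Pttg1 in aging against normal under both FPKM fits (1) and without normal replicate 1 or aging replicate 2, and Cdc25b in medium against normal without TMM factors, with upper-quartile factors, under both FPKM fits (1 each) and without medium replicate 1. With the 2-fold line every count of members was 0. For medium against aging, 21 rises became 11 without TMM factors and 8 under each FPKM fit, and 18 to 22 rises and 4 to 6 falls were found with 1 library left out. With the replicate number as a block (replicate block) the counts were 39 rises, 20 rises and 6 falls, and 41 rises, and since the numbers share nothing in the labels no pairing is read from them.

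Relative to the mean of all libraries, the summed level of the members moved from 0.8386 to 0.8646 in normal libraries without TMM factors, from 1.0492 to 1.0655 without TMM factors and 1.0647 on FPKM in aging libraries, and from 1.1123 to 1.0699 and 1.0783 in medium libraries. On the gene strand alone, 48.6% of the matched members held CCAAT, 31.4% held 2 or more and 37.1% held both kinds of motif, against 23.7%, 4.74% and 2.93% of all genes. The directions that turned were all in medium against aging, and Anln alone among them was called: without TMM factors Kif20a (-0.013), Cdk1 (-0.018), Top2a (-0.055), Ndc80 (-0.024), Nusap1 (-0.075), Ect2 (-0.003), Plk1 (-0.013) and Ttk (-0.071); with upper-quartile factors Top2a (-0.006), Nusap1 (-0.025) and Ttk (-0.021); with DESeq2 and without a low-count filter Kif2c (0.001 in each); on log2(FPKM + 1) Kif20a (-0.022), Top2a (-0.055), Ndc80 (-0.025), Nusap1 (-0.064), Plk1 (-0.012), Anln (-0.026) and Ttk (-0.067); on log2(FPKM + 0.1) Kif20a (-0.023), Top2a (-0.055), Ndc80 (-0.025), Nusap1 (-0.065), Plk1 (-0.012), Anln (-0.026) and Ttk (-0.07). With 1 library left out, the values of Kif2c (-0.021 to 0.016), Kif11 (-0.036 to 0.004), Incenp (-0.048 to 0.006), Nusap1 (-0.006 to 0.018) and Ttk (-0.052 to 0.063) took both signs. The cause of these changes was not tested beyond the scaling itself. Among the other 8 lists, 14 of 288 counts in aging against normal, 36 of 288 in medium against aging and 24 of 288 in medium against normal moved by over 1.5 times, under alternatives applied to them after the data were seen.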
